A study of Homo sapiens with 27 samples.

Results

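The 9 genes described here encode enzymes that set the supply of deoxynucleotides, the building blocks of DNA: RRM1, RRM2, TYMS, TK1, DUT, DCK, DTYMK, CTPS1 and SAMHD1. They were chosen by gene symbol, with earlier results of these data known. On the arrays they were represented by 28 probe sets annotated to a single gene, of which 26 passed a filter on low signal, and all 9 genes were among the 12386 genes tested. For each gene the values given are those of its brightest probe set over 27 arrays.

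Ribonucleotide reductase, built from the large subunit RRM1 and the small subunit RRM2, converts ribonucleotides into deoxyribonucleotides. TYMS makes thymidine monophosphate from the deoxyuridine form, DUT supplies that precursor and keeps uracil out of DNA, and DTYMK carries the product one phosphate further. TK1 and DCK recycle deoxynucleosides, CTPS1 makes the cytidine nucleotide CTP, and SAMHD1 breaks deoxynucleotide triphosphates down. RRM2, TYMS and TK1 are classical genes of the S phase of the cell cycle, whereas DCK and SAMHD1 are also expressed in resting cells.

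Each of 9 groups had 3 arrays. EBC-1, a non-small cell lung cancer line, and MKN-45, a gastric cancer line, are described by the submitters as addicted to the receptor tyrosine kinase MET. HCC827, another non-small cell lung cancer line, is described as having activated c-Met without depending on it, and served as the negative control. Cells of each line received SGX-523, which selectively blocks the MET kinase, for 48 h or 24 h (1 uM), or the solvent DMSO. The labels state no time for DMSO, so the 3 DMSO arrays of a line serve both its 48 h and its 24 h comparison, and the 2 comparisons are not independent. The arrays of a group are labelled as biological replicates, nothing further is said of separate cultures, and p-values measure the spread between these arrays. Several DMSO arrays carry a running number within the line's name in 1 label (MKN-46, HCC828), so titles were used to assign the groups.

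All levels are deposited log2 values (lowest 1.87, highest 14.38). With so few arrays per group, precision is set by their number. Array medians lay between 5.02 and 5.14 in EBC-1 and MKN-45 and between 5.71 and 5.73 in HCC827. Pairs of arrays from EBC-1 and MKN-45 shared a median of 1056 identical values and pairs within HCC827 shared 1027.5, but HCC827 shared 163 with the other lines, so levels are not compared between HCC827 and the others. One array, HCC827 SGX-523 24 h replicate 3, stood apart, with a correlation of at most 0.967 with any other array of its line, and results that rest on it are given with and without it. MET, the drug target, had levels between 11.43 and 12.85 on all 27 arrays. Of 8 epithelial markers, 6 in EBC-1 and 8 in each of the other lines reached the array median on every array, and CDH1 (E-cadherin) reached it on none in EBC-1. Of 8 fibroblast markers, 6 in EBC-1, 6 in MKN-45 and 7 in HCC827 were below the array median on every array, although LUM had a median level of 11.84 in EBC-1, and of 7 leukocyte markers this held for 4, 5 and 5. The mean fibroblast marker level in EBC-1 was 4.92 to 4.94 at 48 h and 4.76 to 4.83 at 24 h, against 4.48 to 4.56 with DMSO. In MKN-45 the fibroblast mean was 3.82 to 3.89 at 24 h, against 3.67 to 3.73 with DMSO, and the epithelial mean was 10.78 to 10.83 at 48 h and 10.72 to 10.74 at 24 h, against 11.08 to 11.12. The other list means differed from those with DMSO by at most 0.11. The part of these markers in the results was not tested.

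Short stretches upstream of RRM2, TK1, DTYMK, TYMS and DUT are shown as examples that hold motifs known from genes of dividing cells. These genes fell in EBC-1 and MKN-45, but so did RRM1, CTPS1 and DCK, which are not shown. The matches of RRM1 and SAMHD1 are not printed, and a link of the motifs to the falls was not tested. The sequences are from RefSeq, build GRCh38.p14, in the direction of each gene, and capitals mark the motif found. The motifs searched, on both strands and within the 250 bases before each annotated start, were the CCAAT box (CCAAT), the element TTTGAA and the E2F site in the forms TTTGGCGC, TTTCGCGC, TTTCCCGC and TTTGCCGC. A selection of the matches is printed. RRM2 held 3 CCAAT boxes before its second annotated start, the first at chr2:10122606-10122630, the next at chr2:10122636-10122660 and the last at chr2:10122663-10122687, all on the plus strand.
RRM2 first box: caaggcgcagCCAATgggaagggtc
RRM2 next box: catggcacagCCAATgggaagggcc
RRM2 last box: ggcaccaaagCCAATgggaagggcc
TK1, on the minus strand, held 2 boxes written on the opposite strand as ATTGG, at chr17:78187115-78187139 and chr17:78187084-78187108, and DTYMK, also on the minus strand, held 2 at chr2:241686893-241686917 and chr2:241686825-241686849.
TK1 far box: ccgggcgctgATTGGccccatggcg
TK1 near box: ccggctcgtgATTGGccagcacgcc
DTYMK far box: ccggccccggCCAATcccttcgaat
DTYMK near box: ttgacgccggCCAATgggagctccg
TYMS, at chr18:657604-657631 on the plus strand, and DUT, at chr15:48332145-48332172 and chr15:48332160-48332187 on the plus strand, held E2F letters. In TYMS and in the far site of DUT the form TTTCCCGC lies on the opposite strand and so is written GCGGGAAA. The printed stretches of DUT overlap, but its 2 sites do not.
TYMS site: cgggacggccGCGGGAAAaggcgcgcgg
DUT far site: ggcggggctgGCGGGAAAtttcggtttt
DUT near site: aaatttcggtTTTGGCGCgctccctgcg
A CCAAT box was present in 6 of the 15 windows of the members, belonging to 5 members (DTYMK, RRM1, RRM2, SAMHD1 and TK1), against 32.0% of all 35116 windows. At least 2 boxes were present in 4 windows of 4 members, against 9.53% of all windows, and at least 3 in the RRM2 window alone among the members, against 2.93%. An E2F form was present in 2 of the 15 member windows, belonging to DUT and TYMS, against 2.79% of all windows. TTTGAA was present in 2 of the 15, belonging to DUT and RRM1, against 13.3%. Counted from the furthest upstream, all matches of DUT lay in window 4 of its 4 and those of TK1 in window 2 of its 2. The windows of CTPS1 and DCK held none of these letters. SAMHD1, the member that changed least in EBC-1 and MKN-45, held 2 CCAAT boxes. A match is a description of the letters in this window and says nothing about binding.

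SGX-523 lowered the RNA of nearly all of these enzymes in both MET-addicted lines. In EBC-1 9 of 9 members were lower at 48 h and 8 of 9 at 24 h than with DMSO, where 28.9% and 28.1% of all genes tested were called lower (limma, Benjamini-Hochberg adjusted p under 0.05). In MKN-45 9 of 9 were lower at 48 h and 8 of 9 at 24 h, where 26.2% and 26.9% of all genes were. The member not called at 24 h was SAMHD1 in both lines. No member was higher in these comparisons, where 32.8% (48 h) and 31.2% (24 h) of all genes were higher in EBC-1 and 36.4% and 33.4% in MKN-45. The median change over the members was -2.56 at 48 h and -2.26 at 24 h in EBC-1, and -1.70 at 48 h and -1.84 at 24 h in MKN-45, on a log2 scale on which the median of all genes lay between 0.04 and 0.07. In bulk RNA, fewer cells with a transcript and less of it per cell cannot be told apart.

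**Figure D1:**
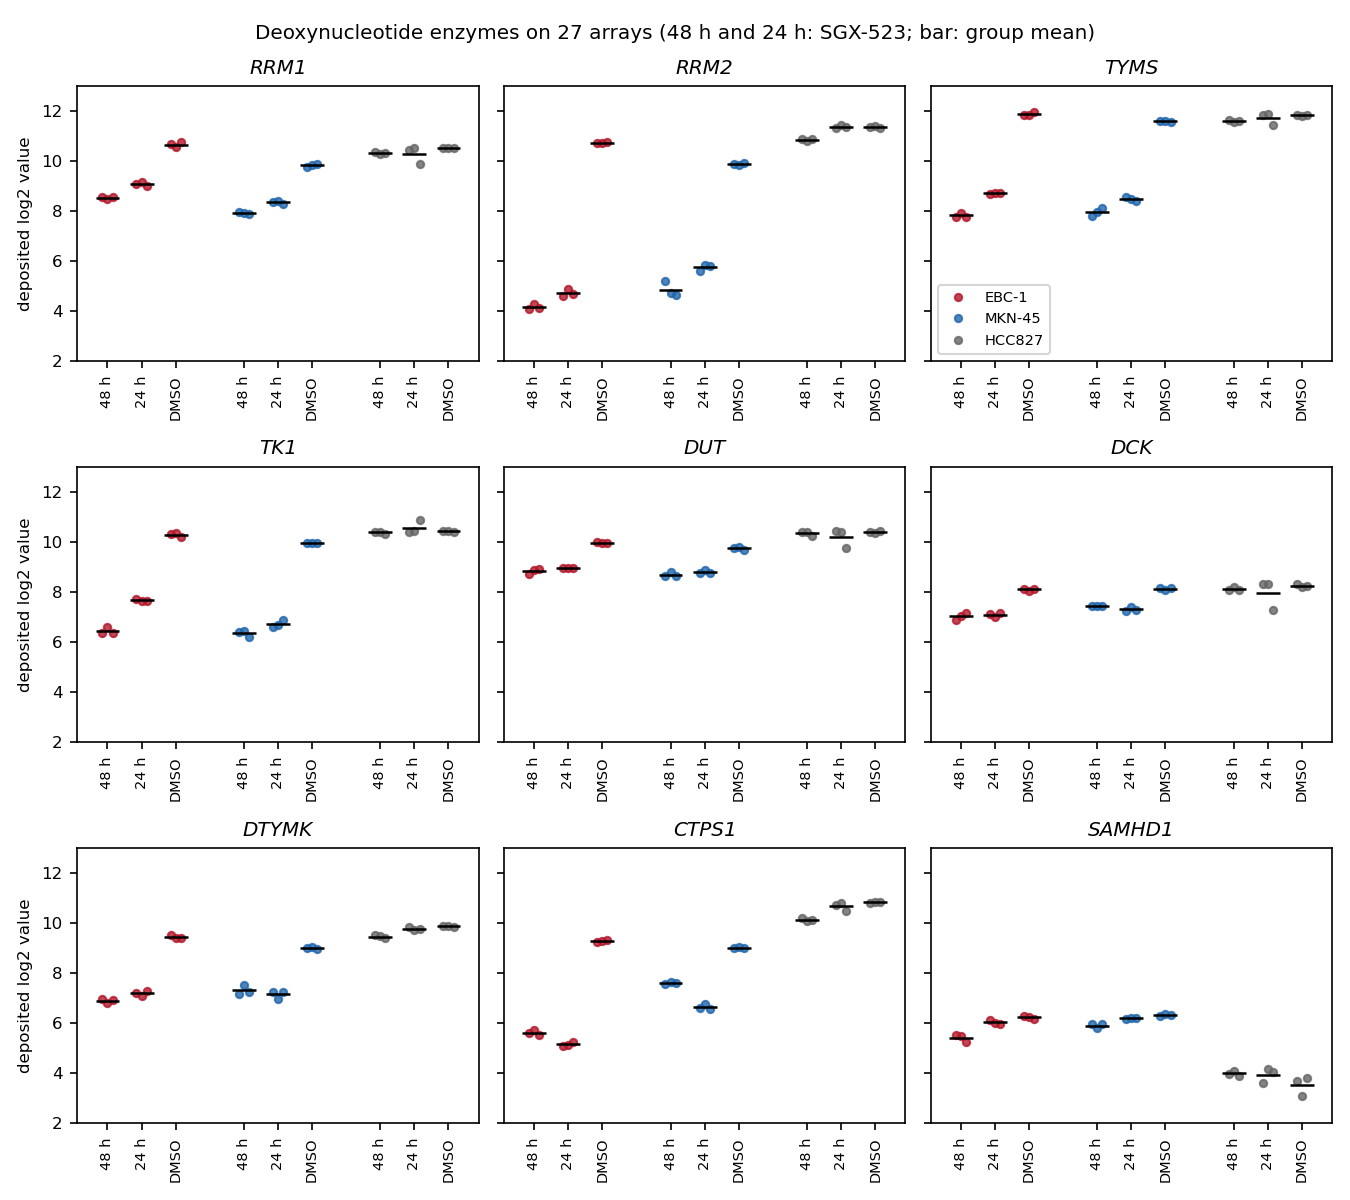
Deposited log2 value of each gene (vertical axis) on each of the 27 arrays, by line and group along the horizontal axis (SGX-523 48 h, SGX-523 24 h, DMSO); points are arrays and bars are means of 3. In EBC-1 and MKN-45 the treated arrays of RRM2, TYMS, TK1, DTYMK and CTPS1 lay well below the DMSO arrays, while in HCC827 they lay close to them; HCC827 levels are not on a common scale with the other lines.

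RRM2, the small subunit that carries the radical used for the reduction, fell furthest. In EBC-1 its level was 4.08, 4.26 and 4.12 at 48 h and 4.60, 4.89 and 4.69 at 24 h, against 10.72, 10.73 and 10.74 with DMSO. In MKN-45 it was 5.20, 4.70 and 4.64 at 48 h and 5.58, 5.84 and 5.81 at 24 h, against 9.87, 9.82 and 9.92 with DMSO. In HCC827 it was 10.87, 10.82 and 10.88 at 48 h and 11.32, 11.45 and 11.34 at 24 h, against 11.34, 11.40 and 11.33 with DMSO. Treated and DMSO arrays did not overlap in EBC-1 or MKN-45 at either time, and in HCC827 they separated at 48 h only. The share of all genes whose arrays do not overlap is not given. Such statements, here and for the other members, are therefore descriptions only. The change in EBC-1 was -6.58 at 48 h (95% interval -6.79 to -6.36, adjusted p = 2.45e-24) and -6.00 at 24 h (adjusted p = 3.15e-23), that is 95.4-fold and 64-fold lower. It ranked 1 of 12386 genes from the lowest change at both times. In MKN-45 the change was -5.02 at 48 h and -4.12 at 24 h, 32.5-fold and 17.4-fold lower, with ranks 11 and 12. The treated levels lay below the array median on all 6 EBC-1 arrays and on 2 of 3 MKN-45 arrays at 48 h, so the size of these changes is less certain than their direction. Its other probe set gave -6.18 at 48 h and -5.02 at 24 h in EBC-1 and -5.03 and -3.92 in MKN-45.

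RRM1, the large catalytic subunit, fell much less than its partner. Its level in EBC-1 was 8.55, 8.47 and 8.56 at 48 h and 9.09, 9.14 and 9.01 at 24 h, against 10.67, 10.54 and 10.74 with DMSO. In MKN-45 it was 7.94, 7.91 and 7.88 at 48 h and 8.37, 8.40 and 8.28 at 24 h, against 9.77, 9.85 and 9.88 with DMSO. No array of a treated group reached the DMSO arrays of its line. The change was -2.12 at 48 h and -1.57 at 24 h in EBC-1, and -1.92 and -1.48 in MKN-45 (adjusted p between 1.42e-15 and 2.2e-12), and each of the 4 comparisons called all 4 probe sets of RRM1 lower. The fall of RRM2 exceeded that of RRM1, a contrast chosen after the values were seen: the log2 change of RRM2 minus that of RRM1 was -4.46 at 48 h and -4.43 at 24 h in EBC-1, and -3.10 and -2.65 in MKN-45. The within-array differences did not overlap with those of DMSO in any of these comparisons (p = 0.1 by a two-sided exact permutation test, and no smaller p is possible with 3 arrays on each side).

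TYMS, the target of fluoropyrimidine drugs, and TK1, the cytosolic thymidine kinase, fell by 6.12-fold or more in both lines at both times. TYMS had levels of 7.77, 7.93 and 7.76 at 48 h and 8.69, 8.73 and 8.74 at 24 h in EBC-1, against 11.85, 11.84 and 11.95 with DMSO. In MKN-45 TYMS had 7.82, 7.98 and 8.12 at 48 h and 8.54, 8.46 and 8.39 at 24 h, against 11.60, 11.59 and 11.57 with DMSO. The groups were widely separated in both lines, and TYMS was 16.7-fold lower at 48 h and 8.95-fold lower at 24 h in EBC-1, and 12.3-fold and 8.71-fold lower in MKN-45 (adjusted p between 2.61e-22 and 6.81e-20). TK1 had levels of 6.36, 6.59 and 6.37 at 48 h and 7.73, 7.64 and 7.64 at 24 h in EBC-1, against 10.32, 10.35 and 10.18 with DMSO. In MKN-45 TK1 had 6.40, 6.45 and 6.20 at 48 h and 6.58, 6.67 and 6.86 at 24 h, against 9.95, 9.97 and 9.97 with DMSO. Again no treated array reached the DMSO arrays. The TK1 change was -3.84 at 48 h and -2.61 at 24 h in EBC-1, and -3.61 and -3.26 in MKN-45 (adjusted p between 7.33e-21 and 1.99e-17).

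CTPS1, which supplies CTP to dividing cells, and DTYMK, the thymidylate kinase, fell in both lines at both times. CTPS1 had levels of 5.58, 5.72 and 5.53 at 48 h and 5.06, 5.11 and 5.25 at 24 h in EBC-1, against 9.24, 9.26 and 9.32 with DMSO. In MKN-45 CTPS1 had 7.56, 7.63 and 7.61 at 48 h and 6.61, 6.74 and 6.57 at 24 h, against 9.0, 9.02 and 8.98 with DMSO. Within each line the 3 groups did not overlap, and the lowest arrays were those at 24 h. CTPS1 was 12.7-fold lower at 48 h and 17.5-fold lower at 24 h in EBC-1, and 2.64-fold and 5.13-fold lower in MKN-45 (adjusted p between 3.15e-23 and 1.56e-14). In EBC-1 at 24 h CTPS1 reached the array median on 2 of 3 arrays, so sizes that rest on that group are less certain than their direction. DTYMK averaged 6.88 ± 0.08 at 48 h and 7.18 ± 0.10 at 24 h in EBC-1, against 9.45 ± 0.06 with DMSO, and 7.30 ± 0.19 and 7.16 ± 0.16 in MKN-45, against 8.99 ± 0.04 with DMSO (SD, n = 3). Its change was -2.56 and -2.26 in EBC-1 and -1.70 and -1.84 in MKN-45, at 48 h and 24 h in each case. DTYMK had a single probe set, whereas all 4 of CTPS1 were lower, by -3.76 to -2.07 in EBC-1 and -1.78 to -0.98 in MKN-45 at 48 h.

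DUT and DCK fell in both lines at both times, with log2 changes between -1.14 and -0.70. DUT averaged 8.83 ± 0.12 at 48 h and 8.96 ± 0.01 at 24 h in EBC-1, against 9.97 ± 0.02 with DMSO, and 8.68 ± 0.08 and 8.79 ± 0.07 in MKN-45, against 9.75 ± 0.05 (SD, n = 3). DCK averaged 7.02 ± 0.12 and 7.08 ± 0.09 in EBC-1, against 8.10 ± 0.04 with DMSO, and 7.43 ± 0.01 and 7.31 ± 0.08 in MKN-45, against 8.12 ± 0.06. The treated arrays lay below the DMSO arrays for both genes in both lines, again with no share of all genes to set beside it. The changes of DUT were -1.14 and -1.01 in EBC-1 and -1.07 and -0.96 in MKN-45, and those of DCK -1.07 and -1.02 in EBC-1 and -0.70 and -0.82 in MKN-45, at 48 h and 24 h (adjusted p at most 0.000407). Another of its 4 probe sets gave larger changes for DUT, of -2.15 and -1.72 in EBC-1 and -2.22 and -1.97 in MKN-45. Of the 5 probe sets of DCK, 5 were called lower in EBC-1 at both times and in MKN-45 at 48 h, and 4 in MKN-45 at 24 h.

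SAMHD1, the triphosphohydrolase that removes deoxynucleotides, changed least. In EBC-1 its level was 5.50, 5.48 and 5.22 at 48 h and 6.10, 6.01 and 5.95 at 24 h, against 6.27, 6.25 and 6.16 with DMSO. In MKN-45 it was 5.95, 5.78 and 5.94 at 48 h and 6.14, 6.20 and 6.20 at 24 h, against 6.29, 6.36 and 6.33 with DMSO. On this brightest probe set the treated arrays lay below the DMSO arrays throughout. At 24 h no change was called, with -0.20 in EBC-1 (95% interval -0.50 to 0.09, adjusted p = 0.236) and -0.15 in MKN-45 (adjusted p = 0.395). At 48 h the change was -0.82 in EBC-1 (adjusted p = 1.78e-05) and -0.44 in MKN-45 (adjusted p = 0.00913). The second kept probe set gave -0.39 in MKN-45 at 48 h and was not called. At 24 h in MKN-45 it averaged 5.60, against 5.56 with DMSO. Its treated and DMSO arrays in MKN-45 overlapped at both times. The other 2 probe sets of SAMHD1 reached the array median on 0 arrays and were not tested.

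**Figure D2:**
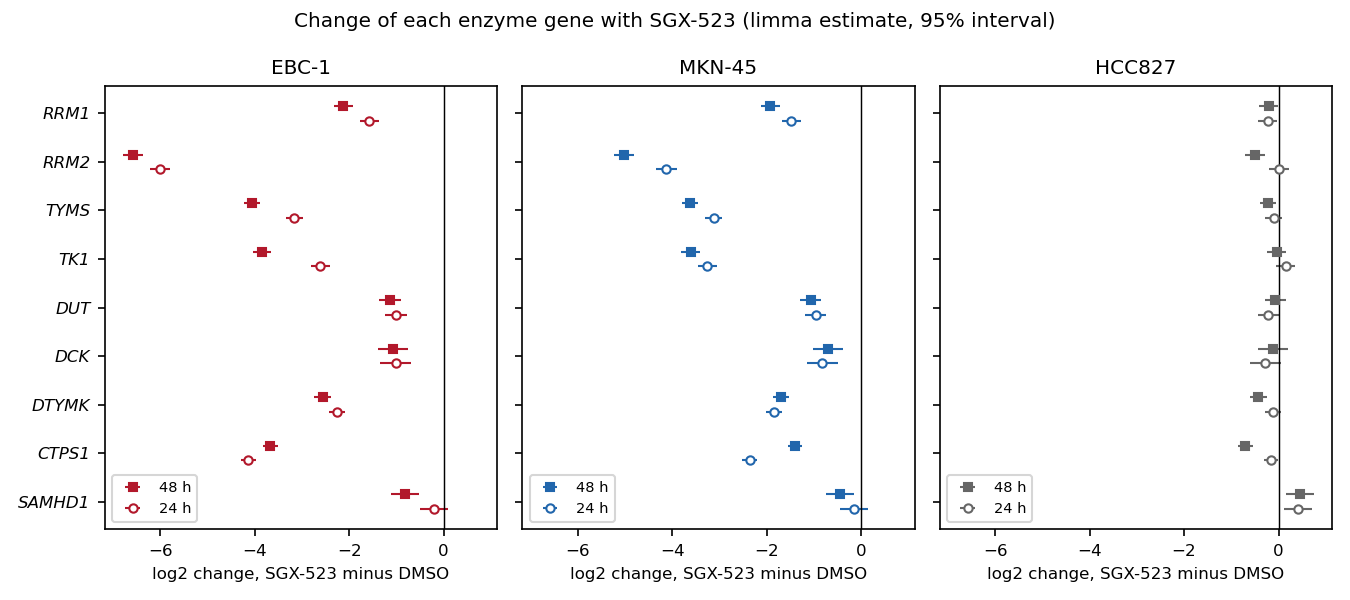
Log2 change of each gene, SGX-523 minus DMSO, on the horizontal axis, with the 95% interval from limma (filled squares 48 h, open circles 24 h; 3 arrays per group). In EBC-1 and MKN-45 RRM2 lies furthest to the left and SAMHD1 nearest to 0; in HCC827 the estimates lie between -0.70 and 0.46.

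**Figure D3:**
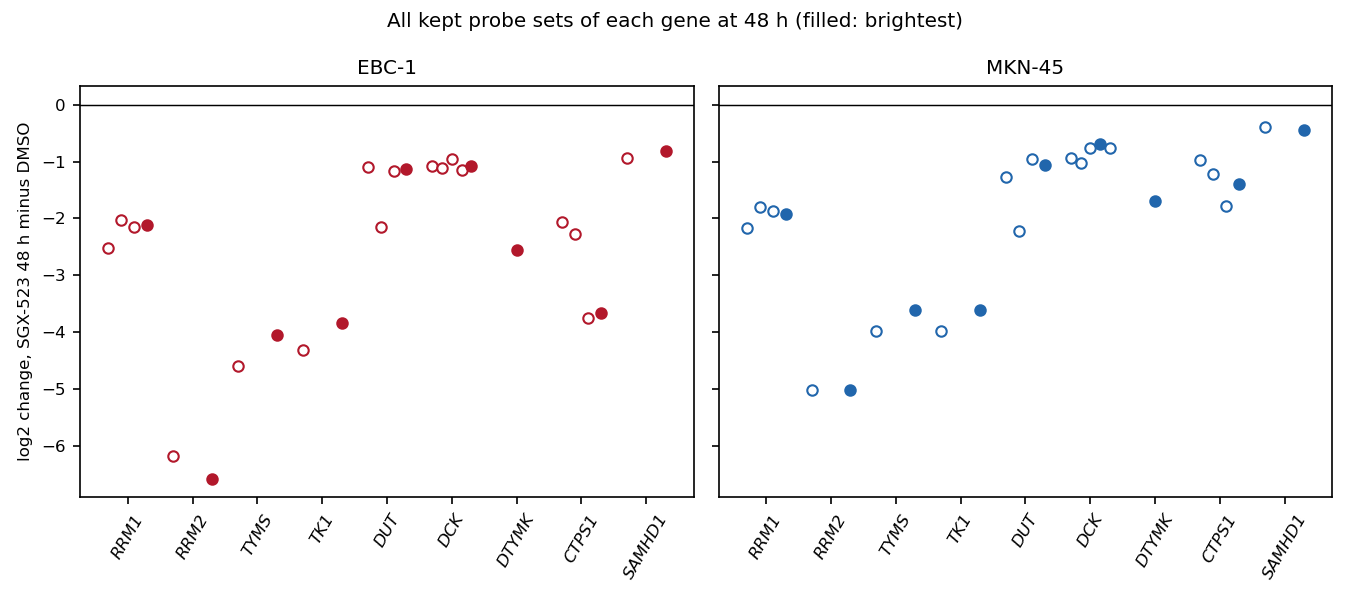
Log2 change at 48 h, SGX-523 minus DMSO, for all 26 kept probe sets of the 9 genes in EBC-1 and MKN-45; filled points are the brightest probe set of a gene. Probe sets of one gene lie on the same side of 0, with the widest spread for CTPS1 in EBC-1 and for DUT in MKN-45.

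In HCC827 the enzymes changed little. At 24 h 0 of 9 members were called by limma, where 0.0323% of all genes were called in either direction. At an unadjusted p under 0.05 there were 3 members, and the share of all genes at that threshold is not given. The estimates lay between -0.28 for DCK and 0.41 for SAMHD1. These values rest partly on replicate 3, which read 9.89 for RRM1, 7.28 for DCK and 9.75 for DUT, against 10.44, 8.31 and 10.42 on replicate 1. Without replicate 3 still 0 members were called, where 20 of all 12386 genes were. Without replicate 1 the count was 4, where 2393 of all genes were called. Without replicate 2 it was 3, where 2674 were. At 48 h 4 of 9 were called, 3 lower and 1 higher, where 10.7% of all genes were lower and 11.6% higher. CTPS1 fell by 0.70 on the log2 scale (adjusted p = 1.81e-07), RRM2 by 0.50 (adjusted p = 0.00105) and DTYMK by 0.42 (adjusted p = 0.00063). RRM1 (-0.21, adjusted p = 0.146) and TYMS (-0.22, adjusted p = 0.0651) were not called, but were when HCC827 SGX-523 24 h replicate 3 was left out of the shared estimate of the spread (adjusted p = 0.000943 and 0.00131), which made 6 of 9. The number of all genes called rose as well, from 2754 to 4648. SAMHD1 read 3.97, 4.08 and 3.88 at 48 h, against 3.67, 3.09 and 3.79 with DMSO, a difference of 0.46 (adjusted p = 0.0206). All these SAMHD1 values lay below the array median, and the call was lost without DMSO replicate 2 (0.25, adjusted p = 0.212), without 48 h replicate 1 (0.47, adjusted p = 0.0507) and without 48 h replicate 2 (0.41, adjusted p = 0.0889).

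The difference in response between a MET-addicted line and HCC827 was called for 9 of 9 members, all lower, in each of 4 tests. SAMHD1 is among them, although it reached the array median on none of the 9 HCC827 arrays, so its response in HCC827 is one of low signal. For EBC-1 minus HCC827, 24.2% of all genes were lower at 48 h and 23.4% at 24 h, and for MKN-45 minus HCC827 21.5% and 22.3%. The differences for RRM2 were -6.08 and -6.02 for EBC-1 and -4.52 and -4.14 for MKN-45, at 48 h and 24 h. The smallest were those of DCK, at -0.58 (adjusted p = 0.0322) and -0.54 (adjusted p = 0.0447) for MKN-45, which were lost with the mean of all probe sets (adjusted p = 0.0637 and 0.493) and on leaving out most single arrays, with adjusted p up to 0.147 at 24 h. The mean of all probe sets also ended the call of DCK for EBC-1 at 24 h (-0.47, adjusted p = 0.191). Without HCC827 SGX-523 24 h replicate 3 the 24 h tests still called 9 of 9 members for each line, with differences of -6.03 to -0.56 for EBC-1 and -4.15 to -0.51 for MKN-45, and DCK moved to -1.08 and -0.88. The shares of all genes called without that array are not given. CTPS1 in MKN-45 differed from HCC827 by -0.70 at 48 h but -2.21 at 24 h. Leaving out HCC827 DMSO replicate 2 ended the call of SAMHD1 at 24 h for EBC-1 (adjusted p = 0.0563) and MKN-45 (adjusted p = 0.0993), as leaving out HCC827 SGX-523 24 h replicate 2 did for MKN-45 (adjusted p = 0.0695).

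The labelled RNA differed between groups in measures of quality as well. The log2 ratio of the 3 prime to the 5 prime ACTB probe set averaged 3.89 at 48 h and 3.76 at 24 h in EBC-1, against 3.36 with DMSO, and 4.16 and 3.68 in MKN-45, against 3.53. In HCC827 it was 2.33 and 2.65, against 2.08 (exact two-sided permutation p = 0.1 in each case, the smallest possible). The 24 h mean in HCC827 rests on replicate 3, which read 3.40, while the others read 2.29 and 2.24, and without it, an alternative chosen after seeing the data, the difference from DMSO was 0.19 and not 0.57. For 45 external control probe sets, the median exceeded that with DMSO by 0.35 at 48 h and 0.33 at 24 h in EBC-1 and by 0.33 and 0.35 in MKN-45, and differed by -0.08 and -0.10 in HCC827. The part of these measures in the enzyme results was not tested.

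RRM1, RRM2, TYMS and TK1 were lower at 48 h than at 24 h of SGX-523 in both MET-addicted lines, while CTPS1 was higher. In EBC-1 6 of 9 members were lower at 48 h than at 24 h and 1 was higher, where 6.08% and 4.99% of all genes were. TK1 fell by 1.23 on the log2 scale, TYMS by 0.90, SAMHD1 by 0.62, RRM2 by 0.58, RRM1 by 0.55 and DTYMK by 0.30, and the call of DTYMK (adjusted p = 0.0194) was lost without 24 h replicate 1, 24 h replicate 3 or 48 h replicate 2 (adjusted p = 0.0601, 0.111 and 0.105). In MKN-45 4 members were lower and 1 higher, where 9.34% and 14.9% of all genes were. RRM2 fell by 0.90, TYMS by 0.50, RRM1 by 0.44 and TK1 by 0.35, the last lost without 24 h replicate 3 (adjusted p = 0.0707) or 48 h replicate 3 (adjusted p = 0.0651). CTPS1 was higher at 48 h than at 24 h by 0.47 in EBC-1 (adjusted p = 7.61e-05) and by 0.96 in MKN-45 (adjusted p = 5.22e-10), with 2 of its 4 probe sets called higher in each line. DUT and DCK were not called in either line, with 95% intervals for the difference of -0.35 to 0.10 and -0.38 to 0.27 in EBC-1 and -0.33 to 0.12 and -0.20 to 0.44 in MKN-45. In HCC827 RRM2 fell by 0.52, CTPS1 by 0.55 and DTYMK by 0.31, which made 3 of 9 lower and 0 higher, where 10.7% and 15.8% of all genes were. Without HCC827 SGX-523 24 h replicate 3, 5 of 9 were called, with TYMS at -0.26 and RRM1 at -0.17. The share of all genes called in that fit is not given.

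The response of EBC-1 was larger than that of MKN-45 for RRM2, CTPS1 and DTYMK at both times. For RRM2 the level with DMSO was also higher in EBC-1 (10.73 against 9.87). Its treated level reached the array median on no EBC-1 array and on 1 of 3 MKN-45 arrays at 48 h. The size of its difference is therefore less certain than its direction. At 48 h 4 of 9 members had a lower response in EBC-1 and 0 a higher one, where 29.4% and 19.6% of all genes did. These were CTPS1 (-2.27, 95% interval -2.48 to -2.05), RRM2 (-1.55, -1.86 to -1.25), DTYMK (-0.87, -1.11 to -0.62) and TYMS (-0.44, -0.69 to -0.19). At 24 h CTPS1 (-1.77), RRM2 (-1.88) and DTYMK (-0.42) had a lower response and TK1 a higher one (0.64, adjusted p = 0.000451), where 23.8% of all genes were lower and 18.4% higher. For TK1 the difference at 48 h was -0.23 and was not called (95% interval -0.52 to 0.05, adjusted p = 0.166). Both probe sets of RRM2 and all 4 of CTPS1 carried the difference at each time, and both of TK1 at 24 h. Leaving out HCC827 SGX-523 24 h replicate 3, which is in neither line but in the shared estimate of the spread, raised the count at 48 h to 7 of 9 by adding RRM1, TK1 and DCK. The share of all genes called in that fit is not given.

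**Figure D4:**
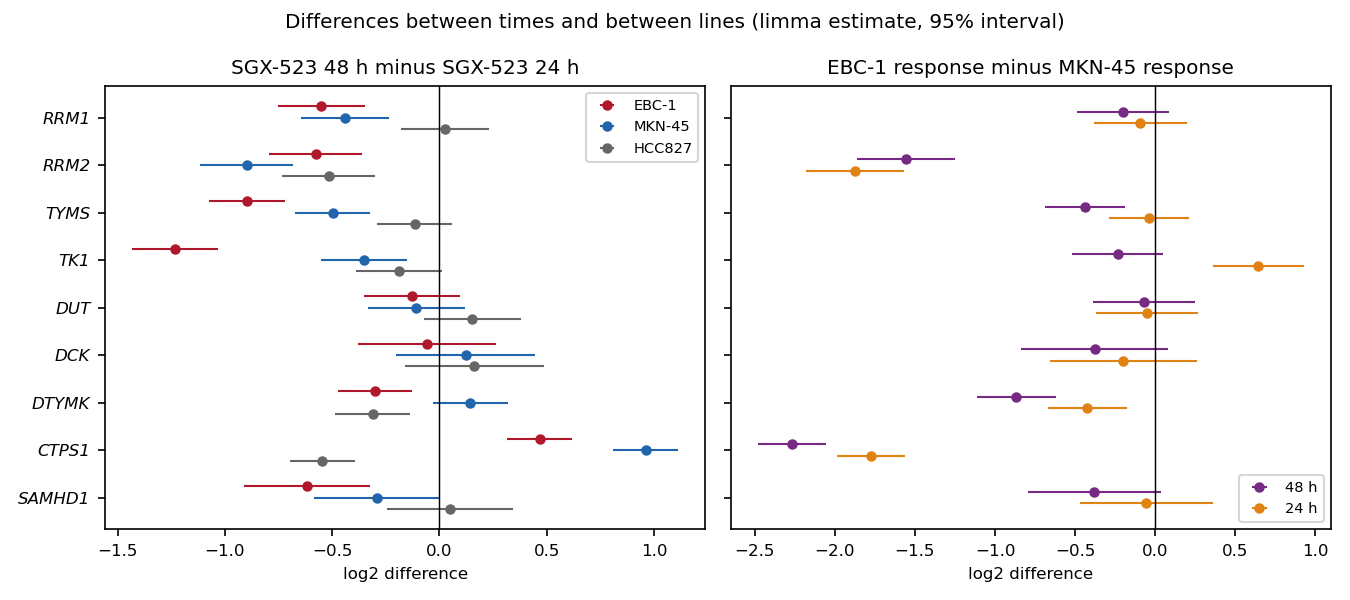
Left, log2 difference between SGX-523 48 h and SGX-523 24 h in each line; right, response of EBC-1 minus response of MKN-45 at 48 h and 24 h; points are limma estimates and lines 95% intervals. CTPS1 lies right of 0 in EBC-1 and MKN-45 in the left panel; in the right panel CTPS1 and RRM2 lie furthest left at both times and TK1 lies right of 0 at 24 h only.

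With DMSO, 6 of 9 members had higher levels in EBC-1 than in MKN-45 and 0 lower ones, where 33.6% and 34% of all genes did. RRM2 averaged 10.73 in EBC-1 and 9.87 in MKN-45, a difference of 0.86, and RRM1 averaged 10.65 and 9.83, a difference of 0.82. DTYMK (0.45), TK1 (0.32), TYMS (0.29) and CTPS1 (0.28) were also higher. DUT (0.22, adjusted p = 0.0793, and 0.00056 without HCC827 SGX-523 24 h replicate 3), SAMHD1 (-0.10) and DCK (-0.03) were not called. Within each line, the order of the group levels was DMSO, 24 h, 48 h from high to low for RRM1, RRM2, TYMS and TK1 in EBC-1 and MKN-45, and neighbouring groups did not overlap. The same held for the brightest probe set of SAMHD1, whose change at 24 h was not called. The share of all genes with such an order is not given, so it is a description of these genes only.

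Over these lines' 18 arrays, each set against the mean of the DMSO arrays of its line, RRM2 was most like BUB1 (Pearson r = 0.997), EED (0.996) and DNAAF5 (0.995). TYMS was most like CDCA5, PRC1 and SMC4, each at 0.997 or 0.998, and TK1 most like PAICS (0.993), KIF2C (0.990) and NDUFAF2 (0.989). DCK was most like CDC123 (0.991), GINS4 (0.991) and NCAPD3 (0.990), and SAMHD1 reached 0.928 with HAUS1. Among the members, r lay between 0.591 for CTPS1 with SAMHD1 and 0.995 for RRM1 with TYMS. These values describe arrays that share treatment groups and DMSO means and carry no test.

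Other genes of nucleotide metabolism were counted by list, and these lists too were chosen with earlier results known. Beside them stand the shares of all genes called lower and higher, which at 48 h were 28.9% and 32.8% in EBC-1 and 26.2% and 36.4% in MKN-45. In purine synthesis 13 of 13 tested genes were lower at both times in EBC-1, where 28.1% of all genes were lower at 24 h. In MKN-45 13 were lower at 48 h, and at 24 h 11 were lower and 1 higher, where 26.9% and 33.4% of all genes were. HPRT1, which salvages purine bases, changed by -1.07 in EBC-1 and -2.15 in MKN-45 at 48 h, and PAICS, PFAS and PPAT, enzymes of the de novo route, by -2.27, -2.22 and -1.86 in EBC-1 and -2.31, -1.29 and -0.86 in MKN-45. In the folate cycle that serves TYMS 7 of 7 tested genes were lower at both times in both lines, with MTHFD2 at -1.70 in EBC-1 and -1.88 in MKN-45 at 48 h, MTHFD1 at -0.90 and -1.63, SHMT2 at -0.72 and -1.20, and the folate carrier SLC19A1 at -1.25 and -1.09. In pyrimidine synthesis 4 of 7 were lower and 2 higher in EBC-1 at 48 h, and 5 and 1 in MKN-45. CAD, which starts the route, changed by -1.97 in EBC-1 and -1.20 in MKN-45, UMPS by -1.15 and -0.66 and UCK2 by -2.23 and -1.47, while CTPS2, the second CTP synthase, rose by 0.77 and 1.19 as CTPS1 fell. The log2 change of CTPS1 minus that of CTPS2, chosen after the values were seen, was -4.44 in EBC-1 and -2.59 in MKN-45 at 48 h.

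**Figure D5:**
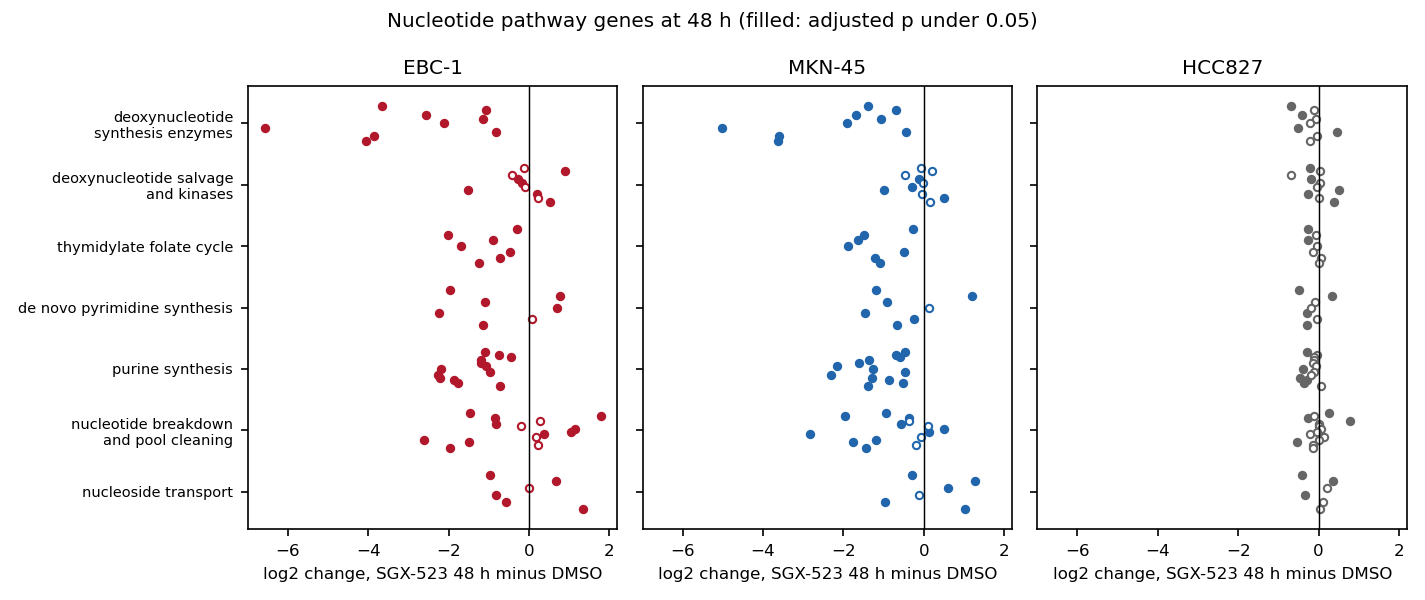
Log2 change at 48 h, SGX-523 minus DMSO, for each tested gene of the 9 enzymes and 6 other lists of nucleotide metabolism in the 3 lines; filled points have an adjusted p under 0.05. Purine and folate genes lie left of 0 in EBC-1 and MKN-45, while the other lists lie on both sides and HCC827 points lie closer to 0.

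Among 10 tested genes of deoxynucleotide salvage and kinases 3 were lower and 3 higher in EBC-1 at 48 h, and 3 and 1 in MKN-45. The shares of all genes at 48 h, 28.9% lower and 32.8% higher in EBC-1 and 26.2% and 36.4% in MKN-45, apply to this count and to the next 3 lists. NME4, a mitochondrial nucleoside diphosphate kinase, changed by -1.51 in EBC-1 and -0.99 in MKN-45, DCTD by -0.28 and -0.12, CMPK1 by 0.89 and 0.20 and the mitochondrial thymidine kinase TK2 by 0.53 and 0.15, the last value of both CMPK1 and TK2 not called. RRM2B, the p53-inducible small subunit, was looked up after its values were seen: it changed by 0.22 (not called) in EBC-1 and rose by 0.51 (adjusted p = 0.00101) in MKN-45 at 48 h. Among 14 tested genes of nucleotide breakdown 6 were lower and 4 higher in EBC-1 at 48 h, and 8 and 2 in MKN-45. NUDT1, which removes oxidised nucleotides, changed by -2.60 and -1.20, PNP by -1.48 and -1.75, NT5C3A by 1.03 and 0.12, and NT5E by 0.37 in EBC-1 but -2.84 in MKN-45. In nucleoside transport 3 of 6 were lower and 2 higher in EBC-1, and 2 and 3 in MKN-45, with SLC29A3 at 1.35 and 1.03, SLC25A36 at 0.67 and 1.28, SLC25A33 at -0.96 and -0.29 and SLC29A1 at -0.82 and -0.11 (the last not called). Of 11 regulators of ribonucleotide reductase and SAMHD1, 9 were lower and 1 higher in EBC-1 and 8 and 2 in MKN-45 at 48 h, with CDK1 at -6.15 and -4.18, CCNA2 at -4.16 and -3.95, MYC at -3.37 and -4.22 and CCND1 at -3.22 and -2.38. In HCC827 at 48 h, where 10.7% of all genes were lower and 11.6% higher, 5 of 13 genes were lower and 0 higher in purine synthesis, 2 and 0 of 7 in the folate cycle, and 3 and 1 of 7 in pyrimidine synthesis. The counts there were 3 and 2 of 10 in salvage and kinases, 2 and 2 of 14 in breakdown, 2 and 1 of 6 in transport, and 2 and 1 of 11 among the regulators.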

How the data were processed

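The deposited table holds 1 log2 value per probe set and array, for 49395 probe sets on 27 one-colour arrays. The submitters' processing notes list MAS5 without saying what it was used for; the authors' normalization is otherwise not stated in the labels or the table. Probe sets with 1 gene symbol (44988) were kept where they reached the array median on at least 3 arrays, and the brightest one stood for its gene, which gave 12386 genes. No pseudocount was applied, since the values were already logarithms. Tests used limma 3.58.1 in R 4.3.3 (lmFit on 9 group means, eBayes with an intensity trend, 18 residual degrees of freedom), with Benjamini-Hochberg adjustment over all genes within each of 16 comparisons and a threshold of 0.05. The members and lists were chosen with earlier results of these data known. All members are named, and up to 4 genes of each other list, those with the smallest adjusted p in EBC-1 or MKN-45 at 48 h. RRM2B is named outside this rule, after its values were seen. On simulated data modelled on EBC-1 at 24 h (12386 genes), 96% of 2-fold and 70% of 1.5-fold changes were recovered, and 8.07% of the calls were false. The simulation changed only 50 genes at each fold size. In the real comparison 28.1% of all genes were called lower and 31.2% higher, so these rates need not hold there. Alternatives were quantile normalization, median centring, other filters, no trend, a fit per line, a replicate block, averaging over probe sets, and leaving out single arrays.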

Additional observations from a re-analysis of the deposited data

Results flagged for a closer look

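The values here are those in which the response to SGX-523 differed between lines by the interaction test in limma, as log2 differences of the first line minus the second. Between EBC-1 and MKN-45 these were, at 48 h, RRM2 (-1.55), TYMS (-0.44), DTYMK (-0.87) and CTPS1 (-2.27). At 24 h the EBC-1 minus MKN-45 differences were RRM2 (-1.88), TK1 (0.64), DTYMK (-0.42) and CTPS1 (-1.77). Between EBC-1 and HCC827 these were, at 48 h, RRM1 (-1.91), RRM2 (-6.08), TYMS (-3.84), TK1 (-3.81), DUT (-1.07), DCK (-0.96), DTYMK (-2.14), CTPS1 (-2.97) and SAMHD1 (-1.28). At 24 h the EBC-1 minus HCC827 differences were RRM1 (-1.34), RRM2 (-6.02), TYMS (-3.06), TK1 (-2.76), DUT (-0.79), DCK (-0.74), DTYMK (-2.15), CTPS1 (-3.98) and SAMHD1 (-0.61). Between MKN-45 and HCC827 these were, at 48 h, RRM1 (-1.71), RRM2 (-4.52), TYMS (-3.40), TK1 (-3.57), DUT (-1.0), DCK (-0.58), DTYMK (-1.27), CTPS1 (-0.70) and SAMHD1 (-0.90). At 24 h the MKN-45 minus HCC827 differences were RRM1 (-1.25), RRM2 (-4.14), TYMS (-3.02), TK1 (-3.41), DUT (-0.74), DCK (-0.54), DTYMK (-1.73), CTPS1 (-2.21) and SAMHD1 (-0.56). SAMHD1 lay below the array median on all 9 HCC827 arrays, so its differences from HCC827 include low-signal values, and at 48 h a change of 0.46 in HCC827 whose call was lost without HCC827 DMSO replicate 2 and without SGX-523 48 h replicate 1 or 2. At 24 h the call of DCK was lost with the mean of all probe sets for EBC-1 (-0.47, adjusted p = 0.191) and MKN-45 (-0.25, adjusted p = 0.493) minus HCC827. The groups have 3 arrays, too few for a test of single outlying arrays.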

How the results depend on the processing

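In EBC-1 and MKN-45 the counts of members called against DMSO were the same when each array was left out in turn (9 at 48 h and 8 at 24 h). Over all results and alternatives other than leaving out arrays, 1050 of 1073 values of single members kept their direction and their side of the threshold, 13 changed sign, 8 were no longer called and 2 became called. The number of genes called in HCC827 at 24 h, 4, became 27 with quantile normalization, 1 with no filter, and 0 with no intensity trend, a separate fit per line, the replicate block or the mean of all probe sets, and 0 to 2674 on leaving out single arrays. A separate fit per line gave 2829 genes for 48 h against 24 h in EBC-1 (1371), 1217 for HCC827 at 48 h (2754) and 1059 for 48 h against 24 h in HCC827 (3286), with fewer arrays per fit, and other causes were not tested. Leaving out single arrays gave 991 to 2972 genes for 48 h against 24 h in EBC-1, 2351 to 4918 in MKN-45 and 2040 to 4648 for HCC827 at 48 h. Members called were 0 to 4 (HCC827, 24 h), 3 to 5 (HCC827, 48 h against 24 h) and 4 to 7 (EBC-1 minus MKN-45, 48 h). The highest of each except the 24 h counts was without HCC827 SGX-523 24 h replicate 3. Of the comparisons with their highest count there, only HCC827 at 48 h against 24 h includes that array. It enters the others only through the shared estimate of the spread. Signs turned only for values not called in the fit reported. With quantile normalization these were RRM1 in HCC827 at 48 h against 24 h (-0.015), and EBC-1 minus MKN-45 for TYMS (0.040), DUT (0.0047) and SAMHD1 (0.0050) at 24 h and DUT at 48 h (0.044). For DCK with DMSO, EBC-1 against MKN-45, median centring gave 0.014 and the replicate block 0.042. The mean of all probe sets gave -0.046 for RRM2 in HCC827 at 24 h, -0.066 for DCK in MKN-45 and 0.020 for TYMS and -0.18 for SAMHD1 in HCC827 at 48 h against 24 h, 0.061 for DUT in EBC-1 minus MKN-45 at 24 h, and 0.0024 for SAMHD1 with DMSO, EBC-1 against MKN-45. Leaving out single arrays gave -0.11 to 0.0076 for DCK at 48 h against 24 h in EBC-1. In HCC827 it gave, at 24 h, -0.025 to 0.040 for RRM2, -0.19 to 0.041 for TYMS, -0.34 to 0.0021 for DUT and -0.45 to 0.060 for DCK, and at 48 h against 24 h -0.17 to 0.15 for RRM1, -0.067 to 0.27 for DUT, -0.18 to 0.33 for DCK and -0.12 to 0.17 for SAMHD1. Same-numbered arrays had correlated deviations between -0.20 and 0.16, with 5 of 27 pairs over 0.1, and 23 of 54 comparisons were best with the own number. These values do not settle whether the numbers pair the arrays. The labels state no pairing, and all fits but the replicate block treated the arrays as unpaired. The replicate block moved no other count of called genes by over 1.5 times, and TK1 with DMSO, EBC-1 against MKN-45, was no longer called under it (0.25, adjusted p = 0.115).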
